A study of Mus musculus with 40 samples.

Results

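The complement genes described here are C1qa, C1qb, C1qc, C4b, C2, C3, Cfb, C3ar1 and C5ar1. They were chosen by name: a probe belonged to the group when its gene symbol in the annotation of the deposited fold change table was one of these. All 9 were found, among 29411 gene symbols with a probe on the array. Complement is a cascade of plasma and tissue proteins that marks particles and dying cells for uptake and recruits leukocytes. The classical pathway starts when C1q binds its target and its proteases cleave C4 and C2, the alternative pathway amplifies through factor B, and both converge on C3, whose small fragment, like that of C5, acts through a receptor on myeloid cells. In adipose tissue the C1q chains are known as products of macrophages, whereas C3, factor B and factor D are also made by stromal cells and adipocytes.

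The samples are total RNA of subcutaneous stromal vascular cells of C57BL/6J mice, hybridised in 1 colour to Agilent arrays. Mice weaned at the age of 3 to 4 weeks received a low-fat control diet (LFC, 10% of calories from fat), a high-fat diet with added sucrose (HFC, 60%), or the high-fat diet with 5, 20 or 75 µg of the plant formulation Kal-1 (HF5, HF20 and HF75). There were 11 LFC, 11 HFC, 6 HF5, 5 HF20 and 5 HF75 arrays, and 2 further arrays of week 18 with conflicting labels entered no comparison. LFC and HFC were sampled at days 1, 6, 10 and 14 and at weeks 0, 3, 6, 9, 12, 15 and 18, where week 0 is again day 14, HF5 at weeks 3 to 18, and HF20 and HF75 at weeks 3 to 15. Each diet had 1 array per time label, so the time labels served as replicates, and the 3 replicates per time point of the study's methods are not in these files. The labels give 30 animals per group with 5 sacrificed in each interval, and they do not say how many were pooled on an array. The precision of each value is limited by how few arrays there are.

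A level is the log2 spot intensity of a gene less the log2 of the 75th percentile intensity of the same array, so that 0 marks the 75th percentile. Spots were brighter than their background by a median factor of 4.86, which ran from 1.53 to 55.4 between arrays. Levels of different genes come from different probes, so genes were not ranked by level, and sums over a list of genes serve only to compare arrays. The titles call the material infiltrating macrophages, and all 8 macrophage markers (Cd68, Emr1, Csf1r, Cd14, Fcgr1, Mertk, Lyz2 and Mrc1) were well above background on 35 of 38 arrays. All 6 fibroblast markers were well above background on 34 of 38 arrays, all 6 endothelial markers on 35 and all 8 adipocyte markers on 34. The arrays therefore read a mixture of cells, and fewer cells of a type and less RNA per cell cannot be told apart in any value here.

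A few arrays stood apart from the others. The LFC array of week 3 was dim, with 16.8% of its probes well above background, and the LFC array of day 14 had 9104 spots marked as outliers. On the LFC array of week 18 the mean level of the fibroblast markers was -5.22, with 2 of 6 well above background, and that of the neutrophil markers was 5.79. The HFC array of day 1 had the lowest mean of the macrophage markers among the 38 arrays, -1.11. Some values below are also given without these arrays.

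C1qa, C1qb and C1qc encode the A, B and C chains of C1q, the recognition molecule of the classical pathway. C1qa had no value on the LFC arrays of days 1 and 10, where its spot was marked as an outlier. On the other 9 LFC arrays its lowest, median and highest levels were -0.03, 2.09 and 3.45, and on the 11 HFC arrays they were -0.07, 2.20 and 4.65. The ranges overlapped almost fully. The lowest LFC value, at week 3, was not well above background, the lowest HFC value was at day 1 and the highest at week 6. In HF5 the levels of C1qa ran from 0.41 at week 3 to 3.71 at week 6, with a median of 2.17. The HF20 arrays read 1.27, 2.63, 2.53, 2.34 and 2.15 at weeks 3, 6, 9, 12 and 15. In HF75 the same weeks gave 1.60, 1.71, 1.76, 0.67 and 1.45. HFC read 1.91, 4.65, 2.68, 2.20 and 2.65 there. The HF75 arrays, from 0.67 to 1.76, lay below the HFC arrays of these weeks. The ranges of both diets did not overlap, whereas HF5 and HF20 overlapped both. The share of all genes whose HF75 and HFC ranges did not overlap was not counted, so this is not read as particular to C1qa.

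C1qb levels on LFC arrays ran from -0.03 at week 3, not well above background, to 2.21 at day 6, with a median of 1.07. On HFC arrays they ran from -0.33 at day 1 to 3.15 at week 6, with a median of 1.21. The HFC values at weeks 3, 6, 9, 12 and 15 were 1.09, 3.15, 2.01, 1.21 and 1.58. Those of HFC thus stayed above 1 at each of these weeks. HF75 gave 0.45, 0.28, 0.64, 0.14 and -0.06 at the same weeks. The HF75 and HFC values of C1qb did not overlap over these weeks, which is not read as particular to C1qb for the same reason as in C1qa. HF20 gave 0.50, 1.69, 1.74, 1.57 and 0.32, and HF5 ran from -0.10 at week 3 to 2.84 at week 6, with a median of 1.103. Both of these diets overlapped HFC and HF75.

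C1qc had levels of 1.03 to 3.88 in LFC, with a median of 2.79, and of 1.11 to 4.78 in HFC, with a median of 3.04. The lowest and highest arrays were those named for C1qb: week 3 (not well above background) and day 6 in LFC, day 1 and week 6 in HFC. In HFC at weeks 3, 6, 9, 12 and 15 it read 3.04, 4.78, 3.81, 2.86 and 3.36, and in HF75 it read 2.48, 3.48, 2.04, 2.15 and 2.54. HF20 read 2.30, 3.31, 3.45, 3.00 and 2.74, and the 6 HF5 arrays lay between 1.84 and 3.70 with a median of 2.80. The HF75 value was below that of HFC in each week, but the HF75 array of week 6 lay above 3 of the HFC arrays of other weeks.

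**Figure D1:**
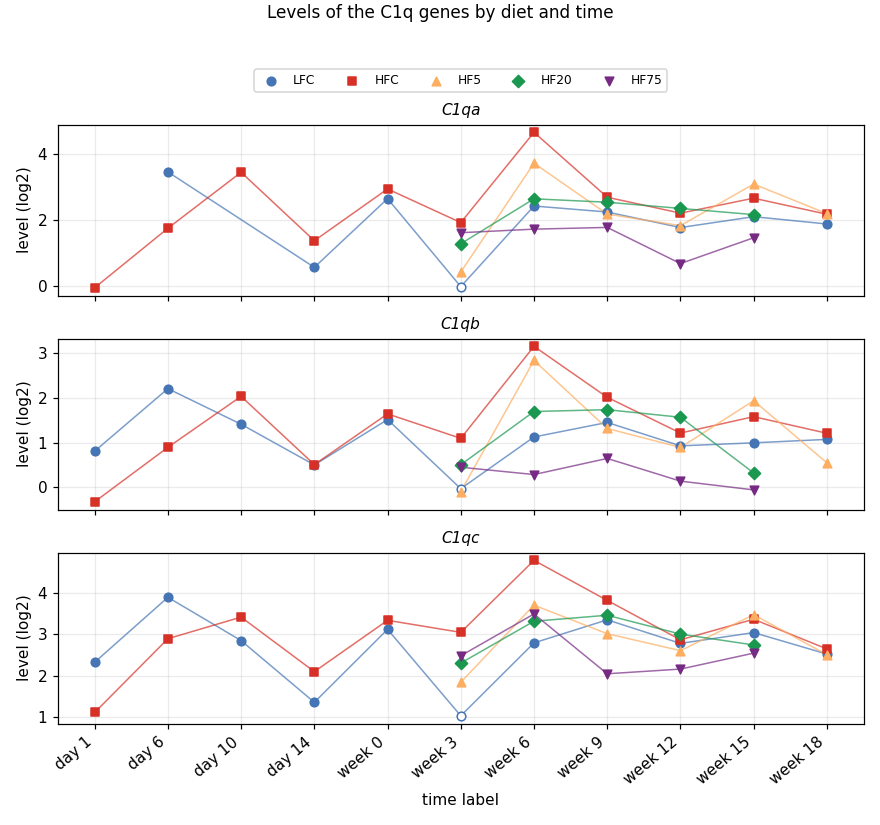
Levels of C1qa, C1qb and C1qc (log2 scale with 0 at each array's 75th percentile, vertical axis) at each time label (horizontal axis), 1 point per array and 1 colour per diet; open points are not well above background. The HFC arrays peak at week 6, at 4.65, 3.15 and 4.78, and at weeks 3 to 15 each HF75 array lies below the HFC array of the same week.

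The 3 chains varied together. Over the 36 arrays other than LFC week 3 and LFC day 14, Pearson's r of C1qb with C1qc was 0.86 (Spearman's rho 0.83). Over the 34 of these with a value of C1qa, its r was 0.93 with C1qb (rho 0.94) and 0.90 with C1qc (rho 0.83). Without HFC day 1 and LFC week 18, r was 0.93 for C1qa with C1qb, 0.88 for C1qa with C1qc and 0.86 for C1qb with C1qc. Among 20221 other genes well above background on 50% or more of the 36 arrays, those with the highest r to the mean of the 3 chains over the 34 arrays were Csf1r (0.91), Cd68 (0.85), Fcna (0.80), Man1c1 (0.79) and P4hb (0.79). Over all of these genes the median r was -0.04. The 8 macrophage markers had a median r of 0.61 with the C1q mean, from 0.28 for Cd14 to 0.91 for Csf1r, the 6 fibroblast markers had 0.17 and the 8 adipocyte markers -0.05. Without HFC day 1 and LFC week 18 these medians were 0.52, 0.30 and -0.05. All of these points share the array scale.

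The genes of the chains also lie side by side. On mouse chromosome 4, 0 annotated genes lie between C1qa and C1qc and 0 between C1qc and C1qb. RefSeq promoter sequence was at hand for 5 of the 9 complement genes. Since C1qb and C1qc are neighbours that moved together, the 150 bases before the start of each are printed here 5′ to 3′ (RefSeq, GRCm38.p6, minus strand), at chr4:136886201-136886350 for C1qb and chr4:136892915-136893064 for C1qc. Capitals mark the letters GAGGAA, which form the core of many sites of the myeloid factor PU.1, searched on both strands.
C1qb: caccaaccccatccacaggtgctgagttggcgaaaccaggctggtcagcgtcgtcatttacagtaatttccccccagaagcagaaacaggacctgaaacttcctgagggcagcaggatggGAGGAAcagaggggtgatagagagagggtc
C1qc: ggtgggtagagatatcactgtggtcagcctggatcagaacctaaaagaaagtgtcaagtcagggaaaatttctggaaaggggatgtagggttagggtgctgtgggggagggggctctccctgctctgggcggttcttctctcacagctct
The C1qb window held 1 match, which begins 30 bases before the start, and the C1qc window held 0. Of 32817 RefSeq promoter windows of 150 bases, 4749, or 14.5%, held the motif on either strand. Binding was not measured.

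C4b and C2 encode the next components of the classical pathway, which C1s cleaves to form the convertase that acts on C3. The accessions of the C4b probe belong to both C4a and C4b, so its level may read either gene. The probe is shown here because this limits every C4b value.
C4b probe: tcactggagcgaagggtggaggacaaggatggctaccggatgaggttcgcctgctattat
C4b levels in LFC had a lowest value of -1.77 at week 18, a median of 3.21 and a highest value of 3.76 at day 6. In HFC they had a lowest value of -0.31 at day 1, a median of 3.29 and a highest value of 5.31 at week 9, where the spot was saturated. Most arrays of both diets lay close together, apart from the low ones at week 18 and day 1 and the LFC array of week 3, whose -0.03 was not well above background. HF5 ran from 0.76 at week 3 to a saturated 5.58 at week 9, with a median of 3.73. The HF20 arrays gave 3.04, 2.83, 4.66, 5.04 and 5.38 at weeks 3, 6, 9, 12 and 15. HFC gave 3.16, 3.70, 5.31, 3.88 and 4.12 at these weeks. HF75 gave 2.83, 2.56, 2.82, 3.09 and 3.43, below HFC in each week and overlapping it in range. The highest of the HF75 values, at week 15, lay above the HFC value of week 3.

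C2 levels in LFC ran from -0.999 at week 18 to 4.75 at week 0, with a median of 4.23. In HFC they ran from 0.40 at day 1 to a saturated 5.33 at week 9, with a median of 4.60. In HF5 they ran from 1.39 at week 3 to a saturated 5.40 at week 9, with a median of 4.48. LFC week 18, HFC day 1 and HF5 week 3 were low for C2 as for C4b, and the LFC array of day 14 was low as well, at 1.29, whereas C2 on LFC week 3 was 3.65. HF20 read 4.07, 4.24, 5.10, 5.04 and 5.14 at weeks 3 to 15. HF75 read 3.82, 4.88, 3.47, 3.92 and 4.48, and HFC read 4.60, 4.89, 5.33, 4.57 and 4.81. At week 6 the C2 levels of HF75 and HFC differed by only -0.01 (log2), and the ranges of these diets overlapped.

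Cfb encodes factor B, the protease of the alternative pathway convertase. Its levels in LFC ran from -1.59 at week 18 to 5.06 at day 6, with a median of 4.10. In HFC they ran from 0.0035 at day 1 to 5.16 at week 9, with a median of 4.23, and in HF5 from 1.83 at week 3 to 5.39 at week 9, with a median of 4.10. The low arrays were again LFC week 18 and HFC day 1, besides LFC week 3 (0.24, not well above background) and LFC day 14 (1.59). HF20 gave 4.03, 3.42, 5.25, 5.09 and 5.10 at weeks 3 to 15. HF75 gave 4.42, 3.58, 3.19, 3.58 and 3.99, and HFC gave 4.31, 4.59, 5.16, 4.23 and 4.50. Only at week 3 was Cfb in HF75 above HFC.

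**Figure D2:**
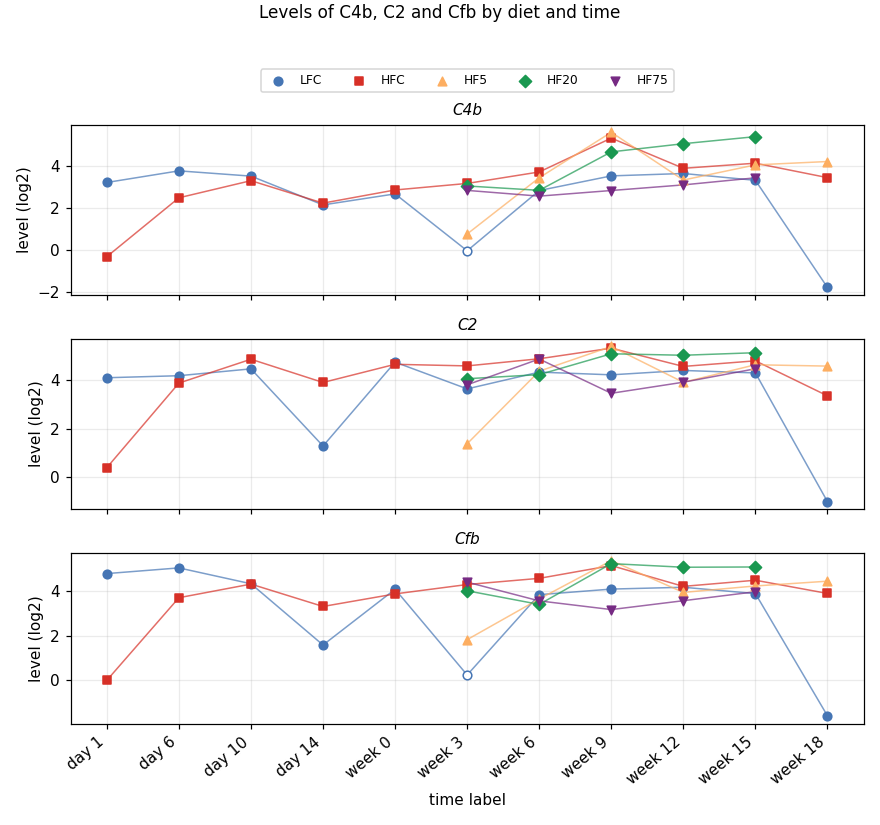
Levels of C4b, C2 and Cfb (log2 scale with 0 at each array's 75th percentile, vertical axis) at each time label (horizontal axis), 1 point per array and 1 colour per diet; open points are not well above background. The 3 genes are low together on HFC day 1 (-0.31, 0.40 and 0.0035) and LFC week 18 (-1.77, -0.999 and -1.59).

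C4b, C2 and Cfb lie on mouse chromosome 17. Between C2 and Cfb the annotation has 1 gene, which is not coding, and between Cfb and C4b it has 11, of which 5 are coding. Over 36 arrays r was 0.90 for C4b with C2 (rho 0.68), 0.94 for C4b with Cfb (rho 0.83) and 0.94 for C2 with Cfb (rho 0.69). Without HFC day 1 and LFC week 18, where all 3 are low, r was 0.77, 0.87 and 0.79. Part of the size of r thus rests on these arrays. With C1qb, r was 0.37 for C4b, 0.40 for C2 and 0.36 for Cfb, lower than that of C1qb with the other chains. It was higher with C1qc, at 0.49, 0.58 and 0.51, and with C1qa over 34 arrays, at 0.45, 0.52 and 0.47. The fibroblast markers had a median r of 0.62 with C4b, 0.71 with C2 and 0.72 with Cfb, but without HFC day 1 and LFC week 18 it was only 0.063, 0.21 and 0.18, so it rests on these arrays. Of these markers Col1a2, Col3a1 and Dcn were saturated on 24, 21 and 25 of 38 arrays, which limits every value of the list. The endothelial markers had 0.51, 0.61 and 0.56, and 0.25, 0.52 and 0.35 without these arrays. For the adipocyte markers r was 0.46, 0.37 and 0.48, and then 0.42, 0.23 and 0.46, and for the macrophage markers 0.33, 0.36 and 0.33, and then 0.26, 0.36 and 0.28. Of the hepatocyte markers only Alb and Cyp2e1 were bright enough, with a median r of 0.48, 0.31 and 0.41, and then 0.52, 0.27 and 0.48. Without HFC day 1 and LFC week 18 other lists had a negative median r with C4b, C2 and Cfb. Among them were T cell (-0.43, -0.55 and -0.33), B cell (-0.41, -0.50 and -0.27) and neutrophil markers (-0.38, -0.43 and -0.33). Immediate-early markers then had -0.42, -0.11 and -0.37. Whether the share of any of these cells on an array moved the 3 genes was not tested.

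C3 encodes the protein on which the pathways converge. Its spot was saturated on 23 of 38 arrays: 7 of LFC, 6 of HFC, 5 of HF5, 4 of HF20 and 1 of HF75. A level from a saturated spot is a lower bound, and on these 23 arrays it ran from 5.20 to 7.03. Such a level is the ceiling of the scan less the 75th percentile of the array, so it follows the array scale by construction. On the 15 arrays without saturation it ran from 3.64 at LFC day 14 to 7.82 at LFC week 3, with a median of 6.48. In pairs an order can be read only where no spot was saturated or where the saturated level is the higher one. That held for 5 of 11 pairs of HFC and LFC, with HFC lower at days 1, 6 and 10 and higher at day 14 and week 18. It held for 2 of 6 pairs of HF5 and HFC (lower at week 3, higher at week 18), 0 of 5 of HF20 and 1 of 5 of HF75 (lower at week 3). HF75 gave 6.16, 6.72, 6.79, 6.97 and a saturated 6.50 at weeks 3 to 15, whereas all 5 HFC arrays of these weeks were saturated, between at least 5.35 and at least 6.63. No fitted difference between diets is read from C3. The genes with the highest r to C3 over 36 arrays were Gm5915 (0.83), Gm10080 (0.77), Rps28 (0.76), Myl6 (0.76) and Gm8894 (0.76), and they were themselves saturated on 26, 29, 28, 35 and 26 arrays. A further C3 probe was saturated on 0 arrays and had an r of 0.24 with the one described.

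C3ar1 and C5ar1 encode the receptors of the C3a and C5a fragments. C3ar1 was well above background on 35 of 38 arrays. Its LFC levels ran from -5.92 at week 18 to -0.03 at week 3, neither well above background, with a median of -2.95. In HFC they ran from -4.46 at day 1 to -1.47 at week 6, with a median of -2.97, and in HF5 from -3.84 to -1.84 with a median of -3.07. Apart from the LFC extremes, the ranges of these 3 diets overlapped. HF20 read -4.51, -2.66, -2.45, -3.39 and -3.50 at weeks 3 to 15. HF75 read -5.88 (not well above background), -4.63, -4.01, -3.55 and -3.71, against -4.01, -1.47, -3.13, -3.07 and -2.97 in HFC. The HF75 values of C3ar1 were below HFC in each week, and the ranges overlapped through the HFC array of week 3. With C1qb, the r of C3ar1 was 0.64 over 36 arrays (rho 0.71).

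C5ar1 was well above background on 12 of 38 arrays only: 2 of LFC, 7 of HFC, 2 of HF5, 1 of HF20 and 0 of HF75. The highest of these levels was -4.09 in HFC, at day 14, and -1.19 in LFC, at day 14 on the array with many outlier spots. No difference in C5ar1 is read, since most of its values are bounds.

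The first comparison asks how the high-fat diet changed the complement genes. HFC was set against LFC of the same time label, with the 11 pairs as replicates, in limma over 20826 genes. With limma 0 of the 9 complement genes and 0 of all genes tested (0%) had an adjusted p under 0.05. All 9 passed the filter on dim probes in every comparison, C5ar1 in the comparisons of diets only through the HFC arrays. At an unadjusted p under 0.05 limma gave 0 of the 9, beside 645 genes, or 3.1%, of those tested. Over the 7 genes other than C3, which was mostly saturated, and C5ar1, which was mostly dim, a choice made after seeing the data, the fitted log2 difference was above 0 for 7 of 7 and the median was 0.59, beside -0.03 over all genes tested. Cell markers moved as well, and here and below each list of 5 or more tested markers is named in which all, or all but 1, moved the same way. Higher in HFC were macrophage (7 of 8, median 0.22), fibroblast (6 of 6, 1.28), endothelial (6 of 6, 1.15) and immediate-early markers (7 of 7, 1.40), and lower were B cell (5 of 5, -0.44), neutrophil (6 of 6, -0.63) and epithelial markers (5 of 5, -1.32). These medians include LFC week 18, where the fibroblast mean was -5.22 (lowest HFC array 3.80) and the neutrophil mean 5.79 (highest HFC array 1.51). They were not recomputed without that pair, so their size is not read. The fibroblast markers Col1a2, Col3a1 and Dcn were also often saturated. The part of the markers in the complement differences was not tested. C1qa was higher in HFC in 8 of 9 pairs (0.59, SE 0.394, adjusted p 0.927), C1qb in 9 of 11 (0.28, SE 0.316) and C1qc in 9 of 11 (0.39, SE 0.329). Each of these is within the spread between pairs. On pairs of the same slide only, the difference of C1qa was 0.24. With 1 pair left out the difference was 0.38 to 0.88 for C1qa and 0.23 to 0.55 for C1qc. C4b and C2 were higher in 8 of 11 pairs each, by 0.67 and 0.59, and Cfb in 7 of 11, by 0.67. Leaving out 1 pair gave 0.22 (without week 18) to 1.09 (without day 1) for C4b, 0.22 to 1.02 for C2 and 0.19 to 1.22 for Cfb, so their size rests on these pairs, and 0.10 (without week 6) to 0.44 for C1qb. Without both day 1 and week 18, an alternative chosen after seeing the data, the differences were 0.63 for C4b, 0.65 for C2, 0.74 for Cfb, 0.45 for C1qb and 0.60 for C1qc. Without the pairs of day 14 and week 3 they were smaller: 0.46 for C4b, 0.33 for C2, 0.17 for Cfb, 0.37 for C1qa, 0.21 for C1qb and 0.17 for C1qc. The difference of C3ar1 changed sign under some alternatives.

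The pairs of C1qa, C1qb, C1qc, C4b, C2 and Cfb were also split by period. At weeks 3 to 18 each of these genes was higher in HFC in 6 of 6 pairs. The median log2 difference was 0.50 for C1qa, 0.57 for C1qb, 0.39 for C1qc, 1.34 for C4b, 0.75 for C2 and 0.90 for Cfb. The LFC arrays of weeks 3 and 18 gave 2 of those pairs. C3ar1 did not share this, with HFC higher in 3 of the 5 pairs with an order at weeks 3 to 18 and in 3 of 5 before. At days 1 to 14 and week 0 HFC was higher in 2 of 3 pairs for C1qa, 3 of 5 for C1qb and C1qc, 2 of 5 for C4b and C2 and 1 of 5 for Cfb. The difference between both periods was tested in limma as the HFC effect at weeks 3 to 18 less that at the earlier labels. Again 0 of the 9 complement genes and 0 of 20826 genes (0%) had an adjusted p under 0.05 in limma, and 2 of the 9, C4b and Cfb, beside 4.75% of all genes, had an unadjusted p under 0.05. The log2 difference between the periods was 2.97 for C4b (SE 0.977, adjusted p 0.756) and 2.93 for Cfb (SE 1.25, adjusted p 0.756). Without day 1 and week 18 it was 1.69 for C4b and 1.26 for Cfb, and that of C2 went from 1.49 to -0.0036. Leaving out 1 time label gave 2.33 to 3.32 for C4b and 1.96 to 3.59 for Cfb. The median over the 7 genes was 1.19, beside -0.51 over all genes tested. T cell (5 of 5, median 3.88), B cell (5 of 5, 3.60), fibroblast (6 of 6, 1.83), immediate-early (7 of 7, 1.68), macrophage (8 of 8, 0.92) and endothelial markers (6 of 6, 0.76) moved the same way, and their part was not tested. The marker medians include day 1 and week 18 and were not recomputed without them. No difference between the periods was called.

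Levels at weeks 3 to 18 were also set against those at the earlier labels over LFC and HFC together. Here limma gave 0 of 9 complement genes and 0 of 21606 genes (0%) at an adjusted p under 0.05, and 0 of 9 at an unadjusted p under 0.05, beside 3.07% of all genes. The median log2 difference of the 7 genes was 0.30, beside 0.02 over all genes. Lower at weeks 3 to 18 were adipocyte (7 of 8, -2.06), fibroblast (5 of 6, -0.68), endothelial (6 of 6, -1.08), T cell (5 of 5, -0.33), B cell (5 of 5, -0.86), skeletal muscle (5 of 5, -0.93) and epithelial markers (5 of 5, -0.39). The LFC array of week 18 is part of these values too.

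The remaining comparisons ask what Kal-1 changed on the high-fat diet. HF5, HF20 and HF75 were each set against the HFC arrays of the same weeks, so they share these controls, and no test between doses was run. For HF5, with 6 pairs, limma gave 0 of 9 and 0 of 20840 genes (0%) at an adjusted p under 0.05, and at an unadjusted p under 0.05 it gave 1 of 9, C1qc, beside 5.37% of all genes. The log2 differences of the 7 genes were all below 0, with a median of -0.48 beside -0.01 over all genes. Those of C1qa, C1qb and C1qc were -0.48, -0.47 and -0.56, with C1qb and C1qc lower in 5 of 6 pairs and C1qa in 4 of 6. In the 3 pairs on the same slide the differences of C1qa, C4b, C2 and Cfb were 0.023, 0.042, 0.14 and 0.0073, and those of C1qb and C1qc shrank to -0.21 and -0.097. That of C3ar1, -0.05 over 6 pairs, changed sign under some alternatives. Without week 3 the differences of C1qa, C1qb and C1qc were -0.28, -0.33 and -0.43, and those of C4b, C2 and Cfb were 0.026, -0.0066 and -0.14, so the latter rest on that pair. Lower in HF5 were macrophage (7 of 8, median -0.42, 3 with an unadjusted p under 0.05), adipocyte (7 of 8, -0.38), fibroblast (6 of 6, -0.44), endothelial (6 of 6, -0.34), T cell (5 of 5, -0.63), B cell (5 of 5, -0.42) and immediate-early markers (7 of 7, -0.72). At weeks 3 to 15 the fibroblast markers Col1a2 and Dcn and the adipocyte marker Fabp4 were saturated on 5 HFC and 4 HF5 arrays. Their direction is not read, although the counts of their lists include them. Epithelial (5 of 5, 1.74) and skeletal muscle markers (4 of 5, 0.12) were higher, and the part of any list was not tested.

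For HF20, with 5 pairs, limma gave 0 of 9 and 0 of 22082 genes (0%) at an adjusted p under 0.05, and 0 of 9 at an unadjusted p under 0.05, beside 12.3% of all genes. C1qa, C1qb and C1qc were lower in HF20 in 4 of 5 pairs, by log2 differences of -0.63, -0.65 and -0.61 (adjusted p 0.412, 0.398 and 0.394). Without week 6 these were -0.29, -0.44 and -0.395. Lower in HF20 were macrophage (8 of 8, median -0.48, 3 with an unadjusted p under 0.05), immediate-early (7 of 7, -2.66, 5), T cell (4 of 5, -1.80, 3), B cell (5 of 5, -1.20, 0), neutrophil (6 of 6, -0.90, 2), endothelial (6 of 6, -0.60, 1) and fibroblast markers (6 of 6, -0.39, 2). The fibroblast markers Col1a2, Col3a1 and Dcn and the adipocyte marker Fabp4 were saturated on all 5 HF20 and all 5 HFC arrays. Their direction is therefore not read, although the counts of their lists include them. Adipocyte markers (7 of 8, 1.95, 3) were higher, and the part of any list was not tested. Of the 7 genes 5 were lower and 2 higher, with a median of -0.37 beside 0.08 over all genes. C2 and C3ar1 had -0.12 and -0.37, and C4b and Cfb had 0.16 and 0.02. C4b and Cfb each changed sign when week 12 or week 15 was left out. Without week 6 the difference of C2 changed sign, to 0.0091, and that of C3ar1 was -0.16.

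HF75 was compared with HFC over 5 pairs, in limma over 20657 genes. At an adjusted p under 0.05 limma gave 0 of the 9 complement genes, beside 227 genes, or 1.1%, of all tested. That count of all genes was 0 without week 3, 7 without week 6, 85 without week 12 and 28 without week 15. At an unadjusted p under 0.05 it gave 6 of 9, C1qa, C1qb, C1qc, C4b, Cfb and C3ar1, beside 2978 genes, or 14.4%. All 6 were lower in HF75, beside 6.14% of all genes that were lower at this p. The log2 differences of the 7 genes were all below 0, with a median of -1.09 beside 0.02 over all genes tested. C1qb had a log2 difference of -1.52 (SE 0.352, adjusted p 0.115), which is 2.87-fold lower, and C1qa had -1.38 (SE 0.392, adjusted p 0.194), 2.60-fold lower. C1qc had -1.03 (SE 0.266, adjusted p 0.155), 2.04-fold lower. Each of the 3 was lower in 5 of 5 pairs, and none passed the adjusted threshold. With no filter on dim probes C1qb and C1qc did, with an adjusted p of 0.0486 each, and over all alternatives the adjusted p ran from 0.0486 to 0.318 for C1qb and from 0.0486 to 0.522 for C1qc. The pair differences of C1qb were -0.65, -2.87, -1.37, -1.08 and -1.64 at weeks 3, 6, 9, 12 and 15, and the largest of them, at week 6, falls where HFC peaked. Without week 6 the fitted difference was -1.18 for C1qb and -0.99 for C1qa, and without week 9 it was -0.84 for C1qc.

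C3ar1 had a log2 difference of -1.42 (SE 0.428, adjusted p 0.217) in HF75 and was lower in 5 of 5 pairs, 1 of them with an HF75 value not well above background. Without week 6 it was -0.99. C4b had -1.09 (SE 0.350, adjusted p 0.240) and was lower in 5 of 5 pairs, with -2.48 at week 9, where the HFC spot was saturated and the fold is at least 5.59. Without week 9 the C4b difference was -0.74. C2 had -0.73 (adjusted p 0.364, lower in 5 of 5 pairs) and Cfb had -0.81 (adjusted p 0.335, lower in 4 of 5). The C2 spot of HFC was saturated at week 9 as well. Without week 9 the difference was -0.44 for C2 and -0.52 for Cfb, and without weeks 3 and 9 that of C2 was -0.33. None of these genes was called.

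**Figure D3:**
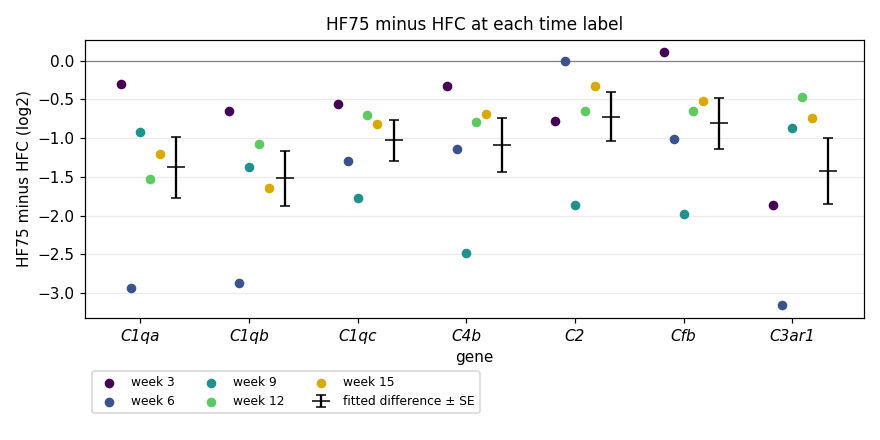
Log2 level in HF75 less that in HFC (vertical axis) for each of the 7 complement genes other than C3 and C5ar1 (horizontal axis), 1 coloured point per week and, in black, the difference fitted by limma with its SE. The points of C1qa, C1qb, C1qc, C4b, C2 and C3ar1 are below 0 at each of the 5 weeks.

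Levels of cell markers and scan dates also differed between HF75 and HFC, and none of the markers was called. The 8 macrophage markers were all lower in HF75, with a median log2 difference of -0.96, and 4 of them had an unadjusted p under 0.05: Csf1r (-1.71), Cd68 (-1.32), Emr1 (-0.97) and Mrc1 (-0.96). The summed level of the 8 markers, relative to the 75th percentile intensity, was 10.53, 23.7, 12.4, 12.5 and 22.7 in HF75 at weeks 3, 6, 9, 12 and 15. In HFC it was 16.3, 72.2, 25.4, 23.4 and 27.3, higher in each week. All 8 markers were well above background on the 5 HF75 arrays, and none of their spots was saturated. The mean log2 difference of the C1q chains was -0.51, -2.37, -1.35, -1.10 and -1.22 at these weeks, beside -0.55, -1.95, -1.04, -0.72 and -0.46 for the mean of the macrophage markers. The part of macrophage content in the C1q difference was not tested. Of the 6 fibroblast markers 4 were lower in HF75 and 2 higher, and 4 had an unadjusted p under 0.05: Pdgfra (-1.07), Lum (-0.90) and Col1a1 (-0.83), lower, and Dcn (0.85), higher. Both that were higher, Dcn and Col1a2, were saturated on all 5 HFC arrays, so their direction is not read. Col1a1 was saturated on 3 of these HFC arrays and on 0 HF75 arrays, so the size of its difference is not read. Endothelial markers were lower (5 of 6, -0.26), and epithelial (5 of 5, median 1.19), neutrophil (5 of 6, 0.93), skeletal muscle (5 of 5, 0.74) and B cell markers (5 of 5, 0.29) were higher. HF75 and HFC arrays were scanned on the same date at weeks 12 and 15 only, where the C1q difference averaged -1.16, against -1.41 over the other 3 weeks. They shared no slide, so slide and diet cannot be told apart.

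A wider list of 53 complement genes, which holds the 9, shows what moved around them. In HFC against LFC, 24 of 42 tested were higher and 18 lower, beside 47.5% of all genes that were higher, and the 2 with an unadjusted p under 0.05 were C1rl, at a log2 difference of -0.92, and Vtn, higher in 9 of 11 pairs, named after their values were seen. In HF5, 36 of 45 were lower, beside 50.8% of all genes, and the 3 with an unadjusted p under 0.05 were C1qc, Daf2 (-1.18) and Itgax (-0.73), of which Daf2 was named after its value was seen. Both counts at this p are near the 3.1% and 5.37% of all genes. In HF20, 30 of 44 were lower, beside 44.1% of all genes, with a median log2 difference of -0.32. Of these 44, 9 had an unadjusted p under 0.05, beside 12.3% of all genes, among them Serping1 (-1.08), which encodes the C1 inhibitor, C1s (-0.59) and C1r (-0.64). In HF75, 32 of 46 were lower, beside 48.5% of all genes, with a median of -0.67, and 17 had an unadjusted p under 0.05, beside 14.4% of all genes. None of the list was called in limma in these comparisons.

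C1s encodes the protease that cleaves C4 and C2, and C1r the protease that activates it. In HF75, C1s was lower than HFC in 5 of 5 pairs, by a log2 difference of -0.99 (SE 0.222, adjusted p 0.107), and C1r in 4 of 5, by -0.79 (adjusted p 0.267). Serping1 was lower in 5 of 5 pairs, by -1.32 (SE 0.343, adjusted p 0.158). Cfd, which encodes factor D, the protease that activates factor B and is made by adipocytes, was saturated on 16 of 38 arrays. Its levels at weeks 3 to 15 were 6.41, 4.54, 7.11, 6.33 and at least 6.35 in HF75, beside 5.59, 2.99, at least 5.33, 6.07 and 4.42 in HFC, so it was higher in HF75 in the 4 of 4 pairs whose HFC spot was not saturated. No fold change is read from it. Cfp (properdin) and Hc, the gene of C5, had -0.57 and 0.57, with adjusted p of 0.518 and 0.651. The integrin chains of the complement receptors on leukocytes, Itgam, Itgax and Itgb2, had 0.57, -0.89 and -0.77, with adjusted p of 0.650, 0.579 and 0.751. Each had pairs in both directions, and the pair of week 6 alone was -4.04 for Itgb2, so no direction is read from these. None of the genes named here passed the adjusted threshold.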

How the data were processed

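Per the file headers, the deposited intensity (gProcessedSignal, with gMeanSignal and gBGMedianSignal for an alternative) came from Feature Extraction 10.5.1.1, which removed background and spatial trends array by array, with no scaling between arrays (the labels name version 9.1). The authors' deposited log2 fold changes against LFC were not used, only that table's annotation. Outlier spots were dropped, log2 intensities shifted by the array's 75th percentile, duplicates averaged and values not well above background raised to the lowest level that was. The probe with the highest mean level stood for a gene. Genes well above background on 50% or more of a group's arrays were tested in limma 3.58.1 (R 4.3.3) with time label as block (random for late against early) and Benjamini-Hochberg adjusted p under 0.05 as called. Python 3.11.15, NumPy 2.4.6, pandas 2.3.3 and matplotlib 3.10.9 were used, and the fit was tested on simulated data. The complement genes and lists were chosen with earlier results of these data known. Named were the 9 genes, the 5 genes most like C1q and C3, and set genes. Among the set genes were Cfd, Cfp, Hc, Serping1, C1r, C1s, Itgam, Itgax and Itgb2. C1rl, Vtn and Daf2 of the wider list were named after their values were seen, at an unadjusted p under 0.05 in limma. Alternatives changed background correction, normalization, filter, dim values, probe, block, slide, scan date and time labels.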

Additional observations from a re-analysis of the deposited data

Results flagged for a closer look

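Of 27 groups of 5 or 6 arrays, 2 held an array far from the others, and chance alone would give about 1 in 20. C1qa on the HF75 array of week 12 was 0.67, and the next HF75 value was 1.45. C2 on the HF5 array of week 3 was 1.39, and the next HF5 value was 3.92. The other signal lies in an array that entered no comparison, the second of those of week 18 with conflicting labels. There C4b was 4.72, above the highest LFC value of 3.76, and C2 was 5.30, above the highest LFC value of 4.75. Both values lie within the HFC range, which reached 5.31 for C4b and 5.33 for C2.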

How the results depend on the processing

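No paired analysis was possible by replicate number because arrays are numbered in deposition order, so pairs were formed by time label. Of 788 recomputed differences of the complement genes, 742 kept direction and side of the threshold, 44 changed sign and 2 newly passed. With no filter on dim probes, C1qb (-1.52) and C1qc (-1.03) in HF75 had an adjusted p of 0.0486, so that 2 of the 9 were called and 4813 genes in all; raised values share a floor there by construction. The adjusted p of C1qb in HF75 ran from 0.0486 to 0.318 over the alternatives and that of C1qc from 0.0486 to 0.522. The HF75 differences of C1qa (-1.89 to -0.99), C1qb (-1.86 to -1.18) and C1qc (-1.15 to -0.84) kept their sign under the 14 alternatives. Of 90 recomputed levels, 77 moved by less than the spread between arrays.

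The 227 genes called in HF75 became 108 with genes well above background on all arrays, and 0 with no time block, without weeks 3 and 9 or with scan date as a random block. Leaving out 1 week gave 0 to 157 genes: 0 without week 3, 7 without week 6, 157 without week 9, 85 without week 12 and 28 without week 15. Late against early gave 2 genes with all arrays well above background, 1 with no block and 1 with slide as block. The cause was not tested for these or for the changes of sign that follow.

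In HFC against LFC, C3 was -0.056 with quantile normalization, -0.37 with the mean of probes, -0.084 without the pairs of day 14 and week 3 and -0.54 on the same slide. C3ar1 was -0.0057 with the mean of probes, -1.02 on the same slide and -0.084 without day 1 and week 18, and C5ar1 was 0.036 without weeks 3 and 9 and 0.43 without day 14 and week 3. Leaving out 1 time label gave -0.22 to 0.17 for C3, -0.21 to 0.53 for C3ar1 and -0.71 to 0.10 for C5ar1.

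In HF5, C3 was 0.22 with normexp, 0.17 without weeks 3 and 9 and 0.17 on the same slide, where C1qa was 0.023, C4b 0.042, C2 0.14 and Cfb 0.0073. Leaving out 1 week gave -0.17 to 0.22 for C3, -0.61 to 0.026 for C4b and -0.27 to 0.16 for C3ar1. In HF20, C2 was 0.15 with normexp and 0.047 without weeks 3 and 9, and leaving out 1 week gave -0.27 to 0.0091 for C2, -0.12 to 0.41 for C4b and -0.19 to 0.32 for Cfb. In HF75, C3 was -0.31 with quantile normalization and -0.65 with the mean of probes.

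For the HFC effect late against early, C5ar1 was 2.57 with normexp and 0.18 without weeks 3 and 9. C3 was 0.27 with quantile normalization, 0.89 with the mean of probes and 0.30 without day 14 and week 3. Without day 1 and week 18, chosen after seeing the data, C2 was -0.0036 and C3ar1 -0.066. Leaving out 1 time label gave -0.73 to 0.048 for C3 and -1.48 to 0.29 for C5ar1.

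Slide as a block was not run for HF20 and HF75, which share none with HFC, nor scan date for late against early effects. A ratio of signal to background of 1.53 on the dimmest array limits what LFC shows at week 3, and saturation limits C3: each fitted C3 difference above includes pairs with saturated spots, whose levels are lower bounds, and is not read.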

Other observations

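The arrays of week 18 that entered no comparison gave these levels. On the first, with 21710 spots marked as outliers, C1qa was -0.33, C1qb 0.08, C1qc 0.23, C3 4.67, C4b 2.44, C2 2.11 and Cfb 1.98, and C3ar1 and C5ar1 had no value. On the second, C1qa was 2.74, C1qb 1.58, C1qc 3.07, C3 a saturated 7.07, Cfb 3.77, C3ar1 -2.65 and C5ar1 -4.38.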
